A study of Mus musculus with 12 samples.

Results

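The 9 genes described here encode adhesion receptors of T cells and their partners: 4 integrin alpha chains, 3 integrin beta chains, the integrin ligand ICAM-1 and the hyaluronan receptor CD44. They are Itga4, Itga6, Itgae, Itgal, Itgb1, Itgb2, Itgb7, Icam1 and Cd44, chosen by their symbols among the 50600 gene IDs of the count tables. All 9 passed the low-count filter and were tested among 16052 genes. RNA was sequenced from 12 mice in 4 groups of 3. Ctrl was thymocytes of DNMT1 fl/fl mice aged 25, 21 and 20 wk, and KO was thymocytes of DNMT1 fl/fl mice with CD4-CRE aged 20, 20 and 21 wk. ALK was T cell lymphoma cells of NPM-ALK+ mice aged 24, 22 and 31 wk, and ALKKO was thymocytes of NPM-ALK+, DNMT1 fl/fl, CD4-CRE mice aged 25, 21 and 19 wk. The mice were of a mixed C57Bl/6 and SV/129 background, and all were male except the second KO mouse. The human fusion kinase NPM-ALK was expressed from regulatory elements of Cd4, and the Cre recombinase from those of the same gene, so both act in T-lineage cells. RNA came from whole homogenized tissue, and ALK was the only group sampled as tumors, so that tumor state and genotype cannot be told apart in any comparison with ALK.

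Integrins are receptors made of 1 alpha and 1 beta chain that bind matrix or ligands on other cells, and they reach the surface as pairs. In T cells, integrin alpha 4 pairs with beta 1 (VLA-4, a receptor for VCAM-1 and fibronectin) or with beta 7 (a receptor for MAdCAM-1 of gut vessels), alpha 6 pairs with beta 1 (a laminin receptor), alpha E pairs with beta 7 (a receptor for E-cadherin), and alpha L pairs with beta 2 (LFA-1, the receptor for ICAM-1). CD44 binds hyaluronan, is high on the most immature thymocytes and is lost as they mature toward the CD4 and CD8 double-positive stage. DNMT1 copies methylation at CpG sites onto new DNA strands.

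The libraries held 12473857 to 18864327 reads on genes, and 3 counts corresponded to 0.159 to 0.24 CPM, the reads on a gene scaled to a common library size. Dnmt1 and Alk followed the labels, with Dnmt1 at 206 to 244 CPM in KO against 400.0 to 487 CPM in Ctrl, and Alk at 34.9 to 54.3 CPM in ALK against at most 0.431 CPM in Ctrl. The second KO library stood apart from the others. Its 6 B cell markers summed to 2001 CPM, against 52.2 and 55.7 CPM in the other KO mice and 56.0 to 95.7 CPM in Ctrl, its 8 macrophage and granulocyte markers to 2701 CPM against 560.5 to 681 CPM in Ctrl, and its 6 double-positive thymocyte markers to 2166 CPM against 5535 to 6460.2 CPM in Ctrl. In ALK tumors the double-positive markers summed to 233 to 499 CPM with Cd8a the highest, and all 5 that were tested were called lower. Rag1, the other gene of this list, was listed at 0 in all 12 libraries, Ctrl included, and overlaps B230118H07Rik on the same strand in GENCODE M21, so no level can be read from it. The 6 T-lineage markers, led by Lck, stood at 2977 to 4052 CPM in ALK against 5159 to 6689 CPM in Ctrl. Single T-lineage genes were near absent in single tumors, with Cd2 at 1.88 CPM in the first ALK mouse and Cd3d at 2.27 CPM in the second. The B cell markers, led by Blnk, summed to 6.46 to 23.9 CPM in ALK, the natural killer cell markers, led by Klrb1c, to 0.202 to 0.437 CPM against 5.31 to 10.1 CPM in Ctrl, the macrophage and granulocyte markers, led by Lyz2, to 301 to 1037 CPM, and the endothelial markers, led by Pecam1, to 185 to 302 CPM against 185 to 252 CPM in Ctrl. The 7 epithelial and fibroblast markers, led by Col3a1, summed to 747 to 1796 CPM in ALK against 579 to 621 CPM in Ctrl, with the highest sum in the first ALK mouse. This list moved in both directions, as the fibroblast collagen genes Col1a1 and Col3a1 were called higher and the epithelial keratin gene Krt8 was called lower, with a log2 fold change of -4.58 (SE 1.07).

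In ALK tumors against Ctrl thymocytes, 5 of the 9 genes fell and 1 rose in edgeR's quasi-likelihood test, where a call required a log2 fold change of more than 1 in either direction and an adjusted p below 0.05. Itga4, Itgae, Itgal, Itgb2 and Icam1 fell, and Cd44 rose. Both chains of LFA-1 and its ligand were among the genes that fell. Of all genes tested, 20.4% were called in this comparison, 8.41% higher and 12% lower, and the median log2 fold change was -1.16 over the 9 genes and 0.05 over all genes. The 3 ALK and 3 Ctrl values did not overlap in 7 of the 9 genes, a pattern seen in 46.4% of all genes. The 3 tumors also lay below all 9 thymus libraries in Itga4, Itgae, Itgal, Itgb2 and Icam1 and above all of them in Itgb1, where 15.8% of all genes tested lay below and 13.1% above all of them (28.9% in all). In bulk RNA, fewer cells that express a gene and less RNA per cell cannot be told apart. The part of the cells behind the double-positive, fibroblast, B cell, macrophage and granulocyte markers in these values was not tested.

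**Figure D1:**
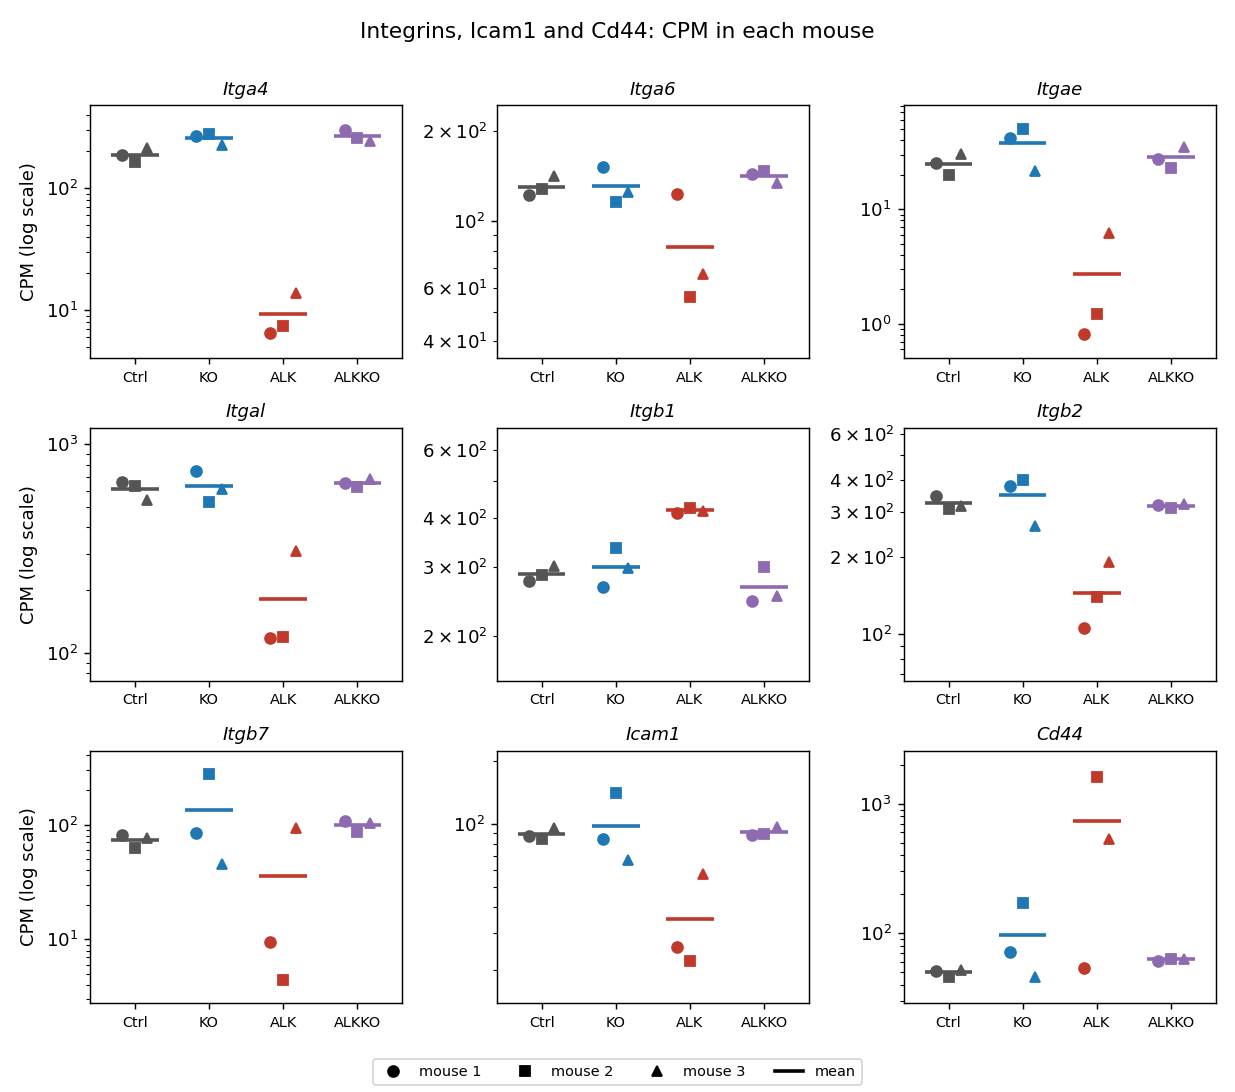
Each panel plots 1 gene, with CPM on a log axis whose range differs between panels and the 4 groups along the horizontal axis. Symbols are single mice and horizontal lines are group means over 3 mice. Itga4 sits at 6.52 to 13.8 CPM in ALK against 163 to 297 CPM in the 9 thymus libraries, whereas Cd44 spreads from 53.6 to 1601 CPM within ALK.

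Among the alpha chains, the fall was deepest in Itga4, the alpha chain shared by VLA-4 and the gut-homing receptor (GRCm38 chromosome 2, 79255426 to 79333123, plus strand, 27 merged exon blocks). Its values were 185, 163 and 213 CPM in Ctrl and 6.52, 7.42 and 13.8 CPM in ALK. All 3 tumors lay far below every Ctrl mouse, and among themselves they differed by up to 2.11-fold, against 1.31-fold in Ctrl. The group means were 187 ± 25.0 and 9.23 ± 3.95 CPM (SD, n = 3), a 20.2-fold fall with a log2 fold change of -4.34 (SE 0.28, 95% confidence interval -4.96 to -3.72, adjusted p = 1.90e-05 by edgeR). The call held under all 21 alternatives, with log2 fold changes from -4.76 to -4.14. Of the Itga4 exon bases, 1124 of 13978 are shared with Cerkl on the opposite strand, and the strand setting of the counting is not given in the sources used here.

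Of the 9 genes, 5 have a promoter window in the RefSeq table of GRCm38.p6, which spans 250 bases before and 50 after the start of a gene. The windows hold 10 CpG sites in Itga4, 6 in Cd44, 5 in Itgb7, 19 in Icam1 and 27 in Itgb1, against a median of 7 over the 32851 windows of the table. The Icam1 window ends at base 21015989, whereas the gene begins at 21015985 in GENCODE M21. Its last 50 bases were not found in a GENCODE M21 transcript of Icam1, so its start differs from the one used for the locus. As many CpG sites as in Itgb1, or more, occur in 15.5% of the windows, and as many as in Itgb7 in 62.0%. The 250 bases upstream are shown for Itga4 and Cd44, which had the largest fall and the largest rise of the 9 genes. CpG sites, the substrate of DNMT1, are in capitals, 6 in Itga4 (chr2:79255176-79255425, plus strand) and 5 in Cd44 (chr2:102901666-102901915, minus strand). No methylation was measured at these bases here.
Itga4: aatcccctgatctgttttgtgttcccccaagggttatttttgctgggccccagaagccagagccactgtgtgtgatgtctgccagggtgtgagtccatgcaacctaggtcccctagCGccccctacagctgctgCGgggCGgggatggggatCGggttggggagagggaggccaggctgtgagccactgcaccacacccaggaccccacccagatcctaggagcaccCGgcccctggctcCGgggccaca
Cd44: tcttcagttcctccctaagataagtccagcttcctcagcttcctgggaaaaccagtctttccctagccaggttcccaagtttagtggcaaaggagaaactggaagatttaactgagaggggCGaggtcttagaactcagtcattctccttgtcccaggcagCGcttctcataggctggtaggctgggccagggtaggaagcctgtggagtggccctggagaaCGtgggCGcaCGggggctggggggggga

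Itgae (chromosome 11, 73090583 to 73147446) encodes alpha E, the E-cadherin receptor chain of T cells in epithelia and of some thymocytes. It was at 25.1, 19.9 and 30.1 CPM in Ctrl and at 0.806, 1.22 and 6.18 CPM in ALK. The groups did not overlap, and the third tumor had several times more of this RNA than the others. The log2 fold change was -3.19 (SE 0.67, adjusted p = 0.00631), with a mean of 2.74 ± 2.99 CPM in ALK against 25.0 ± 5.13 CPM in Ctrl, and was -4.64 without the third ALK mouse. Itgal (chromosome 7, 127296260 to 127335138), the alpha chain of LFA-1, had the highest CPM of the 9 genes in Ctrl. It was at 662, 629 and 539 CPM in Ctrl and at 118, 120.0 and 308 CPM in ALK. The 3 tumors were again below every Ctrl mouse, with the third tumor the highest, and the log2 fold change was -1.74 (SE 0.33, adjusted p = 0.00430), or -2.37 without that tumor. Itga6 (chromosome 2, 71745616 to 71858416), the laminin receptor chain, was at 122, 128 and 142 CPM in Ctrl and at 124, 56.2 and 66.7 CPM in ALK. The first tumor lay inside the Ctrl range and the other tumors below it, and the log2 fold change of -0.67 (SE 0.25) did not pass, with an adjusted p of 0.0677. Without the first ALK mouse the value was -1.09 with an adjusted p of 0.000851, which passes.

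The beta chains did not move together. Itgb1 (chromosome 8, 128685654 to 128733200), the partner of many alpha chains, was at 276, 286 and 302 CPM in Ctrl and at 414, 426 and 419 CPM in ALK. It was higher in every tumor than in any of the 9 thymus libraries, and the tumors hardly differed among themselves: the highest was 1.03 times the lowest, and only 1.93% of the genes tested varied less among the ALK mice. Its log2 fold change of 0.54 (SE 0.13, adjusted p = 0.0103) passed the test of the difference but not the fold threshold. Itgb2 (chromosome 10, 77530252 to 77565708), the beta chain of LFA-1 and of the other leukocyte beta 2 integrins, was at 346, 308 and 316 CPM in Ctrl and at 105, 139 and 190.2 CPM in ALK. Its log2 fold change was -1.16 (SE 0.21, adjusted p = 0.00364). This value lies near the fold threshold, and without the first ALK mouse it was -0.97, which is no longer called.

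Itgb7 (chromosome 15, 102215995 to 102231944), the beta chain that alpha 4 and alpha E use in gut and epithelium, split the tumors. It was at 81.0, 62.0 and 75.7 CPM in Ctrl and at 9.47, 4.45 and 92.7 CPM in ALK. The first and second tumors were far below Ctrl and the third above it, a spread of 20.8-fold that is wider than in 97.5% of the genes tested. The log2 fold change of -1.04 (SE 0.94, 95% confidence interval -3.12 to 1.05) did not pass, with an adjusted p of 0.431, and without the third ALK mouse it was -3.39 with an adjusted p of 0.00764.

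Icam1 (chromosome 9, 21015985 to 21028817), the ligand of LFA-1, was at 87.9, 84.4 and 95.7 CPM in Ctrl and at 25.7, 22.1 and 57.6 CPM in ALK. All tumors were below all Ctrl mice, the third being the nearest to them, as in Itgae, Itgal, Itgb2 and Itga4. The third tumor also had the highest macrophage and granulocyte marker sum, 1037 CPM against 390 and 301 CPM. Its B cell marker sum was 23.9 CPM against 10.9 and 6.46 CPM. The T-lineage, double-positive and endothelial sums were highest there too, and the epithelial and fibroblast sum was lowest. The part of these cells in the values of the third tumor was not tested. The log2 fold change was -1.35 (SE 0.35, adjusted p = 0.0178), or -1.91 without the third ALK mouse. The call was lost without the third Ctrl mouse (adjusted p = 0.0536) or without the second ALK mouse (adjusted p = 0.0519). An antisense gene, Gm47079, shares 511 of the 4360 exon bases of Icam1.

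Cd44 (chromosome 2, 102811141 to 102901665, minus strand) alone of the 9 genes was called higher. It was at 51.3, 45.9 and 52.0 CPM in Ctrl and at 53.6, 1601 and 534 CPM in ALK. The second and the third tumors had 32.2 and 10.7 times the Ctrl mean, whereas the first tumor had 1.08 times the Ctrl mean and lay just above the highest Ctrl mouse. The spread of 29.9-fold among the tumors was wider than in 98.3% of the genes tested. The log2 fold change was 3.87 (SE 0.93, 95% confidence interval 1.80 to 5.94, adjusted p = 0.0123), and it ranged from 2.54 without the second ALK mouse to 4.43 without the first. Leaving out the first Ctrl mouse kept the fold change at 3.87 and gave an adjusted p of 0.0511. The tumor without the Cd44 rise was the one with the highest fibroblast collagen RNA (Col3a1 at 1046 CPM against 599.7 and 311 CPM) and with Cd2 at 1.88 CPM against 394 CPM in each of the other tumors. The T-lineage markers did not move together there. Cd3d and Cd3g were highest in that tumor, Cd3d at 212 CPM against 2.27 and 13.5 CPM and Cd3g at 265 CPM against 34.7 and 138 CPM. Cd3e, at 308 CPM against 399 and 324 CPM, was lowest in that tumor. So were Thy1, at 955 CPM against 1198 and 1480 CPM, and Lck, at 1235 CPM against 1491 and 1703 CPM. The part of these markers in the Cd44 value was not tested.

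None of the 9 genes was called in KO or ALKKO thymocytes against Ctrl, or in ALKKO against KO, by edgeR's quasi-likelihood test, and none had an unadjusted p under 0.05 in these comparisons. DESeq2's Wald test and every other alternative also called 0 of the 9. Few genes were called at all, 0.0187% of those tested in KO against Ctrl, 0.181% in ALKKO against Ctrl and 0.00623% in ALKKO against KO. The log2 fold changes of the 9 genes lay between 0.01 and 0.94 in KO against Ctrl, between -0.12 and 0.50 in ALKKO against Ctrl, and between -0.61 and 0.11 in ALKKO against KO. The intervals were narrow for Itgb1, from -0.39 to 0.16 in ALKKO against Ctrl, and wide for Itgb7, from -1.61 to 2.50. The former lies within the fold threshold and the latter reaches past it in both directions. Both intervals use a spread per gene that all 4 groups share, the ALK tumors included, and not the spread of the compared mice alone.

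**Figure D2:**
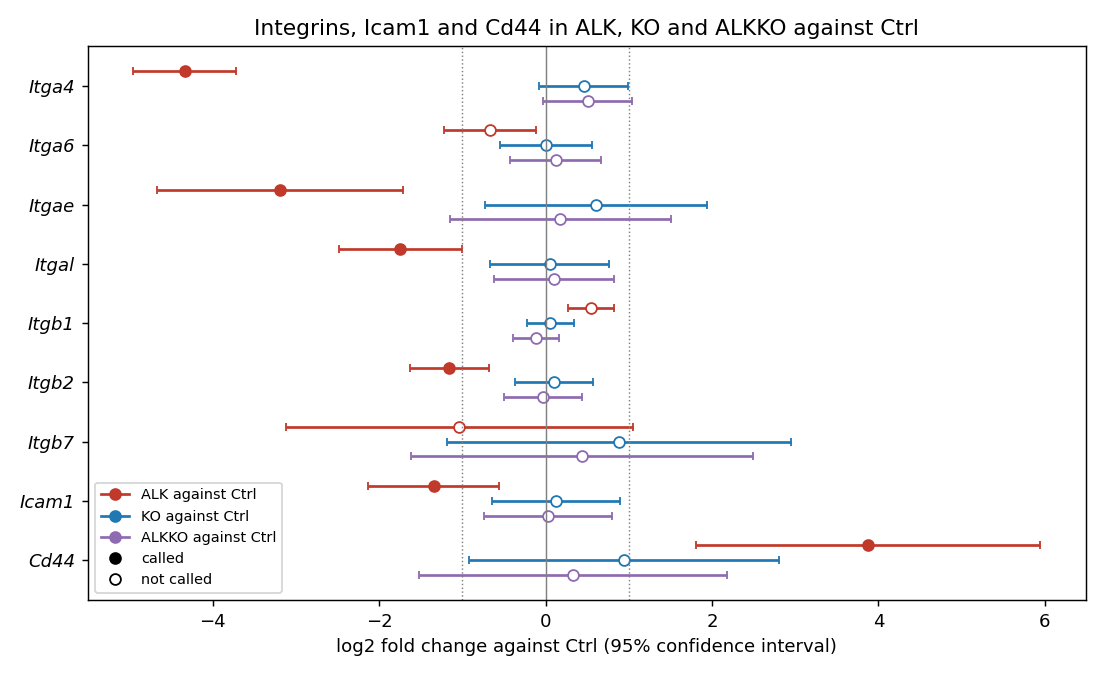
The horizontal axis gives the log2 fold change against Ctrl with its 95% confidence interval for each of the 9 genes, in ALK (red), KO (blue) and ALKKO (purple), 3 mice per group. Filled points were called, open points were not, and dotted lines mark the fold threshold of 1. Called points occur in ALK alone, with Itga4 at -4.34 and Cd44 at 3.87 at the ends.

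Itga4 alone of the 9 genes stood without overlap above Ctrl in both groups with the deletion. It was at 269.6, 276 and 225 CPM in KO and at 297, 256 and 243 CPM in ALKKO, and its highest Ctrl value was 213 CPM. The log2 fold changes of 0.46 (SE 0.24, adjusted p = 0.864) in KO and 0.50 (SE 0.24, adjusted p = 0.9998) in ALKKO did not pass, and both comparisons use the same Ctrl mice. Non-overlapping values were found in 12.4% of all genes in KO against Ctrl and in 17.5% in ALKKO against Ctrl. In ALKKO, Itgb7 at 107, 86.2 and 103.9 CPM and Cd44 at 61.0, 63.3 and 63.2 CPM also lay above all Ctrl mice. Their log2 fold changes of 0.44 (SE 0.93) and 0.33 (SE 0.84) did not pass. These SEs rest on 1 spread per gene fitted over all 12 libraries, with the widely spread ALK and KO values of both genes included. Itgb7 had means of 72.9 ± 9.81 CPM in Ctrl and 99.0 ± 11.2 CPM in ALKKO (SD, n = 3). For Cd44 the means were 49.7 ± 3.31 CPM in Ctrl and 62.5 ± 1.31 CPM in ALKKO. An exact two-sided permutation test of single genes gave its smallest possible p of 0.1 for Itga4, Itgb7 and Cd44 in ALKKO against Ctrl. It gave the same p for Itga4 in KO against Ctrl. This p follows from the lack of overlap and adds nothing to it.

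In KO the second mouse held the highest of the 9 thymus values in 6 of the 9 genes and the lowest in Itgal and Itga6, at 533 and 116 CPM. Cd44 was at 71.0, 170.2 and 46.1 CPM in KO, Itgb7 at 84.3, 274 and 45.3 CPM, and Icam1 at 84.7, 140.1 and 67.3 CPM. The second mouse had 2.91, 4.23 and 1.84 times the mean of the other KO mice in these genes. In Itga4, at 276 CPM, it lay close to the first KO mouse. It is the library with the B cell and macrophage markers given above and the only female, and their part in these values was not tested. Without it the log2 fold change of Itgb7 in KO against Ctrl went from 0.88 to -0.17, and neither value passed.

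The tumors were also set against ALKKO thymocytes, which carry the same transgene, so that this comparison shares the 3 ALK mice with the one above. In ALK against ALKKO, Itga4 (log2 fold change -4.84, SE 0.29), Itgae (-3.37, SE 0.67), Itgal (-1.84, SE 0.34), Itgb2 (-1.13, SE 0.21) and Icam1 (-1.38, SE 0.35) fell and Cd44 rose (3.54, SE 0.92). The adjusted p-values of these 6 were 1.10e-05, 0.00540, 0.00364, 0.00443, 0.0166 and 0.0174, in a comparison in which 19.6% of all genes were called, 7.03% higher and 12.6% lower. Itgb1 was higher by 0.66 (SE 0.13, adjusted p = 0.00451) and Itga6 had -0.79 (SE 0.25, adjusted p = 0.0394), both under the fold threshold. Values did not overlap between the groups in 43.2% of all genes, and here Cd44 overlapped, since the first tumor at 53.6 CPM lay below the lowest ALKKO mouse at 61.0 CPM. The Cd44 call is weak in this comparison, as it was lost without the second ALK mouse (2.21, adjusted p = 0.0677), without any 1 ALKKO mouse (adjusted p from 0.0610 to 0.0619) or with only these 2 groups in the fit (adjusted p = 0.0705). Icam1 was lost without the second ALK mouse (adjusted p = 0.0506), and Itgb2 fell under the fold threshold without the first (-0.92).

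The difference between ALK and Ctrl was then set against the difference between ALKKO and KO, which contrasts the presence of NPM-ALK with and without Dnmt1. This difference of differences was called in Itga4 (-4.38, SE 0.36, adjusted p = 0.000211), Itgal (-1.80, SE 0.46, adjusted p = 0.0371) and Cd44 (4.49, SE 1.23, adjusted p = 0.0457), against 8.93% of all genes. Itgb1 had 0.72 (SE 0.18, adjusted p = 0.0317), under the fold threshold. Itgb2 at -1.02 (adjusted p = 0.0537), Itgae at -2.77 (adjusted p = 0.0703) and Icam1 at -1.25 (adjusted p = 0.131) did not pass. Itga4 was called under all 20 alternatives, whereas the calls of Itgal and Cd44 were lost under 10 and 15 of them.

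Since alpha and beta chains reach the surface as pairs, their RNA was also compared within each library as the ratio of CPM per kb of exon. In RNA of whole tissue the 2 chains can come from different cells, so these are not ratios within a cell. The part of the shifted fibroblast and epithelial markers in the ratios was not tested. The ratio of Itga4 to Itgb1, the VLA-4 pair, was 0.196, 0.166 and 0.206 in Ctrl and 0.00460, 0.00508 and 0.00960 in ALK. The tumors thus held far less alpha 4 RNA for each beta 1 RNA, a mean difference of -4.95 on the log2 scale. The ratio of Itga4 to Itgb7 was 0.453 to 0.557 in Ctrl and 0.136, 0.330 and 0.0294 in ALK, lowest in the third tumor, in which Itgb7 was highest. Itgae to Itgb7 differed by -1.56, Itga6 to Itgb1 by -1.29 and Itgal to Itgb2 by -0.70 on the log2 scale. In LFA-1 the ratio stayed nearest to its Ctrl level, with 0.522, 0.401 and 0.752 in ALK against 0.888, 0.950 and 0.793 in Ctrl. In all 5 pairs the ALK and Ctrl ratios did not overlap, though most of the pairs share a chain with another and are not separate results. The exact two-sided permutation test gave 0.1, the smallest p that 3 against 3 mice allow (0.188 after Benjamini-Hochberg adjustment over 15 ratio tests). Groups that do not overlap always give this p, so it adds nothing to the lack of overlap. In ALKKO against Ctrl, Itga4 to Itgb1 was higher at 0.354, 0.249 and 0.281, by 0.63 on the log2 scale, and Itga6 to Itgb1 by 0.24, both without overlap and at the same p of 0.1 (adjusted 0.188, exact permutation test). In KO against Ctrl, Itga4 to Itgb1 was also higher without overlap, at 0.295, 0.240 and 0.220, by 0.41 on the log2 scale. The exact permutation test gave the same p of 0.1 there (adjusted 0.188). Itga6 to Itgb1 overlapped between KO and Ctrl. No share of non-overlapping ratios over other gene pairs was computed. Over single genes the share without overlap was 46.4% in ALK, 17.5% in ALKKO and 12.4% in KO, each against Ctrl.

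**Figure D3:**
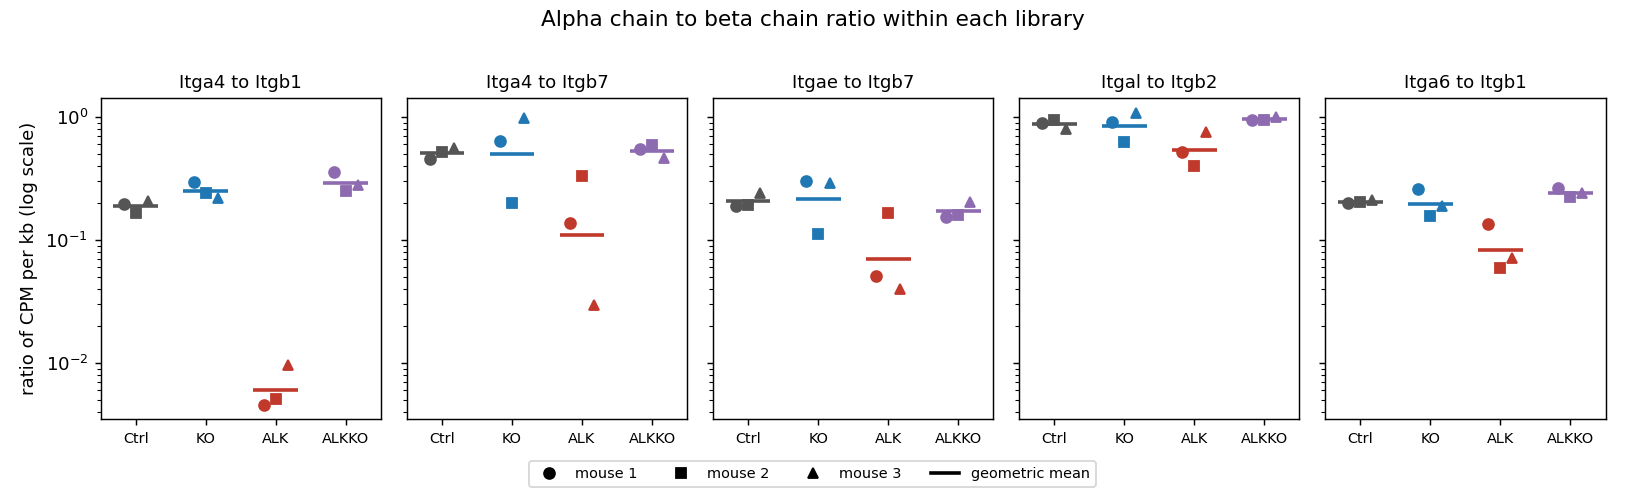
Each panel plots the ratio of an alpha chain to a beta chain within each library, as CPM per kb of exon on a shared log axis, by group. Symbols are single mice and lines are geometric means over 3 mice. The ratio of Itga4 to Itgb1 lies between 0.00460 and 0.00960 in ALK and between 0.166 and 0.354 in the 9 thymus libraries.

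Compared per length, as CPM per kb of merged exons, the order of the levels in Ctrl was Itgb2 (106 ± 6.66), Itgal (92.9 ± 9.67), Itgb1 (70.6 ± 3.15), Itgb7 (26.3 ± 3.54), Icam1 (20.5 ± 1.32), Itga6 (14.5 ± 1.11), Itga4 (13.4 ± 1.79), Cd44 (7.34 ± 0.49) and Itgae (5.47 ± 1.12; SD, n = 3). Only Itga6 and Itga4 overlapped as neighbours in this order. In ALKKO, Itgb2 and Itgal overlapped, as did Icam1 and Itga4, and the order differed from Ctrl only in that Itga4 (19.0 ± 2.03) stood above Itga6 (15.7 ± 0.73). In KO the same order as in ALKKO held, and all neighbours overlapped. In ALK, Cd44 (108 ± 117) and Itgb1 (103 ± 1.53) headed the order and overlapped, followed by Itgb2 (47.5 ± 14.0), Itgal (27.7 ± 16.6), Itgb7 (12.8 ± 17.9), Itga6 (9.11 ± 4.03), Icam1 (8.06 ± 4.47), Itga4 (0.661 ± 0.282) and Itgae (0.597 ± 0.652). Itgb1 did not overlap with Itgb2, nor Icam1 with Itga4, and all other neighbours in this order overlapped. Itga4 thus went from a level beside Itga6 in Ctrl to the bottom of the order beside Itgae in ALK. Levels between genes depend on the length used: with the longest coding sequence in place of all exons, chosen after the data were seen, the log2 ratio of Itga4 to Itgb7 in Ctrl turned from -0.98 to 1.002 and that of Itgal to Itgb2 from -0.19 to 0.27. The differences between groups in these ratios do not depend on it.

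Beyond these genes, 55 genes of adhesion were listed by role and 51 were tested. In ALK against Ctrl, 2 rose and 7 fell, with a median log2 fold change of -0.35. The share called, 9 of 51, is read against 20.4% of all genes. Itga9, the alpha 9 chain that also pairs with beta 1, rose from 12.9, 12.2 and 15.96 CPM in Ctrl to 219.6, 143 and 69.4 CPM in ALK, a log2 fold change of 3.39 with an SE of 0.49 (adjusted p = 0.00124). Tln2, a talin that links integrin tails to actin, rose by 3.30 (SE 0.77, adjusted p = 0.0104). Rasgrp1, an exchange factor for Ras downstream of the T cell receptor, fell from 543, 573 and 605 CPM to 10.3, 10.8 and 42.3 CPM, a log2 fold change of -4.76 with an SE of 0.57 (adjusted p = 0.000559). Itgb3 (-2.50, SE 0.42), Itgad (-2.50, SE 0.63) and Itga8 (-2.35, SE 0.52) fell as well, with adjusted p-values of 0.00251, 0.0152 and 0.00863. The remaining calls, named after their values were seen, were the VLA-4 ligand gene Vcam1 (-1.39, SE 0.44, adjusted p = 0.0377), the LFA-1 ligand gene Icam2 (-1.11, SE 0.22, adjusted p = 0.00500) and the kinase gene Ptk2b (-1.91, SE 0.38, adjusted p = 0.00520). VCAM-1 and ICAM-2 are known from stromal and endothelial cells as well as lymphocytes. The endothelial marker sums overlapped between ALK and Ctrl, while Krt8 was called lower and Col1a1 and Col3a1 higher. The part of endothelial, epithelial and fibroblast cells in the values of Itga9, Vcam1 and Icam2 was not tested.

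**Figure D4:**
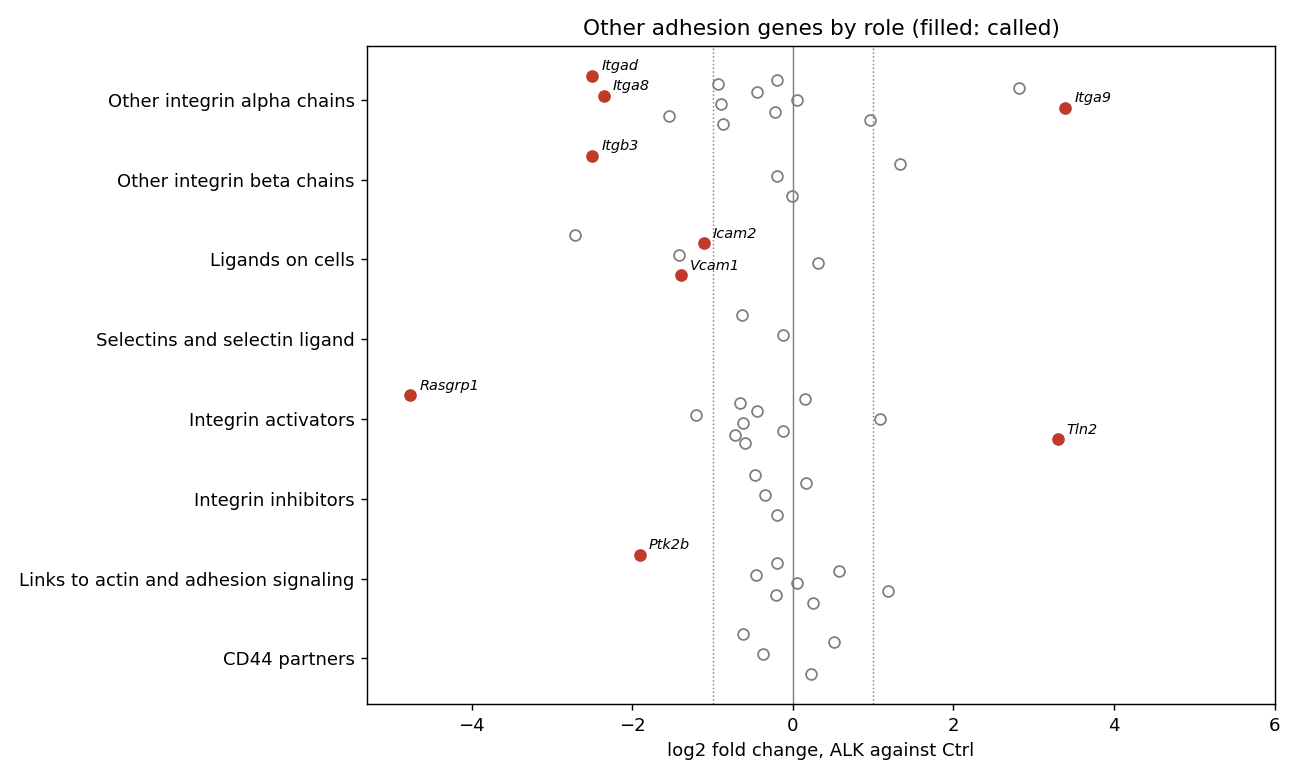
The horizontal axis gives the log2 fold change of ALK against Ctrl for the 51 tested adhesion genes, arranged by role on the vertical axis with a small vertical offset for legibility. Filled points were called and are named, and dotted lines mark the fold threshold of 1. Itga9 at 3.39 and Tln2 at 3.30 are the filled points on the right, and Rasgrp1 at -4.76 is the farthest on the left.

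By role, the other integrin alpha chains had 1 of 13 tested genes higher and 2 lower, the other beta chains 0 of 4 higher and 1 lower, and the ligands on cells 0 of 5 higher and 2 lower. The integrin activators had 1 of 11 higher and 1 lower, and the genes linking integrins to actin and signaling 0 of 8 higher and 1 lower. No call was made among the 4 integrin inhibitors or the 4 partners of CD44 such as ezrin and moesin. Itgam, the partner of beta 2 on myeloid cells, was listed at 0 in all 12 libraries and was not tested. It overlaps Gm49368 on the same strand in GENCODE M21, and reads that overlap several genes were not counted, so no level of Itgam can be read from this value. In ALK against ALKKO, 10 of the 51 were called, 2 higher and 8 lower, which is read against 19.6% of all genes. In KO against Ctrl, ALKKO against Ctrl and ALKKO against KO 0 of the 51 were called by edgeR's test, against 0.0187%, 0.181% and 0.00623% of all genes. Itga9 lay above all Ctrl mice in KO (24.8, 57.6 and 17.7 CPM) and in ALKKO (23.2, 22.8 and 25.2 CPM). Its log2 fold changes of 1.28 (SE 0.46) and 0.79 (SE 0.45) did not pass. Values did not overlap with Ctrl in 12.4% and 17.5% of all genes.

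The genes whose profile over the 12 libraries was nearest to each of the 9 were found by the root mean square (RMS) difference of centred log2 CPM. For Itga4 they were Scin and Ankrd33b (RMS difference 0.28 and 0.29), for Itgae Ehf and St6gal1 (0.33 and 0.36), for Itgal Fam78a and Sh2d2a (0.15 and 0.17), and for Itga6 Cmip and Hipk1 (0.13 and 0.14). Among the beta chains, Itgb1 was nearest to Trap1 and Trim35 (0.06 and 0.07), Itgb2 to Btg1 and Acp5 (0.13 and 0.15), and Itgb7 to Smad7 and Rgs1 (0.35 and 0.38). Icam1 was nearest to Gpr171 and Hcst (0.15 and 0.19). Cd44 was nearest to Cspg5 and Zdhhc2 (0.40 and 0.41). None of the 9 genes was among the nearest pair of another. These distances describe 12 libraries that share their groups and carry no test.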

How the data were processed

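Poly(A) RNA of 12 mice was sequenced as stranded, 50-base single-end reads. After trimming and STAR alignment to mm10, the authors deposited the raw HTSeq count of reads per gene, without normalization. Tool versions, annotation release and strand setting are not given in the sources used here, except Picard 2.19.2 in the submitters' processing notes. Reads that aligned to several places (39.2% to 51.8% of reads per library, highest in ALK) or that overlapped several genes are not counted for any gene and were kept out of library sizes. Of 50600 gene IDs, 50376 were matched to GENCODE M21 (GRCm38) for symbols, loci and exon lengths. Floors cover counting error only.

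Groups came from the sample titles. Counts were fitted with edgeR 4.0.16 in R 4.3.3 (TMM, filterByExpr, 1 term per group over all 12 libraries, robust glmQLFit, glmQLFTest), with Benjamini-Hochberg adjustment over 16052 genes (common biological coefficient of variation 0.436). A call needs a log2 fold change of more than 1 in either direction and an adjusted p below 0.05. The spread was ranked among all genes as the SD of log2(CPM + 0.5). Single genes and ratios were compared by exact permutation (scipy). The fit was also run on counts simulated with 1 spread per gene for all groups. The wider spread of ALK in genes such as Cd44 and Itgb7 was therefore not simulated. Labels give separate mice as replicates.

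The 9 genes, the adhesion and marker lists and the tests were chosen with earlier results of these data known. The named genes are the 9, Dnmt1 and Alk, up to 4 adhesion genes with the largest called rises and falls in ALK against Ctrl at a mean of at least 1 CPM, every adhesion gene called in KO or ALKKO, the top marker of each list in ALK, markers at 0, and 2 nearest profiles per gene. Cd2, Cd3d, Cd3e, Cd3g, Thy1, Krt8, Col1a1, Itgam, Vcam1, Icam2 and Ptk2b were named after their values were seen. Alternatives were DESeq2 1.42.0 (Wald test, size factors), other filters, non-robust fitting, a replicate block, sex or age as covariates, fits of 2 groups, each library left out and, for ratios, other lengths. 1 gene of the adhesion list is not reported here. Replicate numbers were not taken to pair the mice.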

Additional observations from a re-analysis of the deposited data

Results flagged for a closer look

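In 4 of the 9 genes the difference between ALK and Ctrl departed from that between ALKKO and KO at an adjusted p under 0.05 in edgeR's quasi-likelihood test of the difference itself, against 10.3% of all genes tested. Itga4 had a difference of -4.38 on the log2 scale (3 of 3 ALK mice below all other libraries), Itgal -1.80 (3 of 3 below), Itgb1 0.72 (3 of 3 above) and Cd44 4.49 (2 of 3 above all other libraries). The ALK mice bore tumors and the ALKKO mice were sampled as thymocytes, so tumor state and Dnmt1 deletion cannot be told apart. With 3 mice per group, outlying single mice were not tested for.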

How the results depend on the processing

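In ALK against Ctrl the calls of Itga4, Itgae and Itgal held in all 21 alternatives. The number of the 9 genes called stayed at 6 in every alternative except the leave-one-out fits (5 to 7), and in ALK against ALKKO it was 6, with 7 when age was a covariate, 5 in the fit of the 2 groups and 4 to 7 with 1 library left out. No alternative called any of the 9 in the comparisons without ALK. The difference of differences was the least stable, with 3 of 9 called in the full fit, 5 by DESeq2's Wald test and 1 to 7 with 1 library left out, the 7 being without the third ALK mouse and the 1 without any Ctrl or ALKKO mouse, the third KO mouse or the second ALK mouse. Of 33 log2 fold changes followed over the alternatives (all 9 genes in the comparisons with ALK and the difference of differences, and Itga4, Itgb7 and Cd44 in KO and ALKKO against Ctrl), the sign turned only in Itgb7 in KO against Ctrl, from 0.88 to -0.17 with sex as a covariate, and from -0.17 (without the second KO mouse, the only female) to 1.28 (without the third) with 1 library left out.

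The replicate numbers are shared between the groups. Deviations of same-numbered mice correlated at -0.11 to 0.43 (median -0.04) over 18 pairs, 5 of them above 0.1, so the numbers were not taken to pair the mice. With the replicate block, 6 of the 9 genes were called in ALK against Ctrl, 6 in ALK against ALKKO, 0 in the comparisons without ALK and 2 in the difference of differences, where Cd44 had 3.73 (adjusted p = 0.0957). The share of all genes called ranged from 11.1% without a low-count filter to 24.7% by DESeq2's Wald test in ALK against Ctrl, from 10.6% to 23.9% in the same fits in ALK against ALKKO, from 3.38% without the first Ctrl mouse to 15.5% by DESeq2's Wald test in the difference of differences, and from 0% to 0.629% in the comparisons without ALK. With 3 mice per group the smallest exact p is 0.1, and Itgae at 0.806 CPM in the first ALK mouse is the value of the 9 genes nearest to the floor of 3 counts (0.203 CPM there).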
